A study of Mus musculus with 20 samples.

Results

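The clustered protocadherin locus of the mouse was examined as chr18:37080001-38010000 of the mm9 genome, a stretch of 930 kb that holds the Pcdha, Pcdhb and Pcdhg gene clusters. Its members were all CpG cytosines with a coverage of at least 10 reads in at least 4 of the 5 libraries of each of 4 groups, taken singly and in fixed windows of 1 kb. Of 2073 CpG cytosines listed there in any library, 1122 were members, among 1730534 kept by the same rule on chromosomes 1 to 19. Members lay in 144 of the 930 windows. Windows with at least 3 of them were used, 103 in number with 1062 cytosines, among 127276 such windows on all autosomes.

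Protocadherins are cell adhesion proteins, and the clustered ones are known from neurons, where each cell uses a small and largely random set of them and so gains a surface identity. Each variable exon of the clusters has its own promoter, and in the brain the choice of promoter goes along with DNA methylation and with binding of CTCF, a factor that shapes chromatin loops. In the Pcdha and Pcdhg clusters a variable exon is spliced to constant exons shared by the cluster, whereas Pcdhb genes have no such exons. In the RefSeq table for GRCm38, used for names and order only, 58 clustered genes lie on the chromosome, 14 named Pcdha, 22 Pcdhb and 22 Pcdhg. Pcdha1 to Pcdhac2 come first, then Pcdhb1 to Pcdhb22, then Slc25a2, which encodes a mitochondrial carrier, and Taf7, which encodes a subunit of the general transcription factor TFIID, then Pcdhga1 to Pcdhgc5, followed by Diaph1 and Hdac3. That build is not the one of the files, so windows are given by mm9 position and which window belongs to which gene was not determined. The variable exons resemble each other, and how reads that match several of them were treated is not given in the sources used here.

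Methylation was measured by enhanced reduced representation bisulfite sequencing (ERRBS), which reads CpG-rich restriction fragments after a conversion that leaves methylated cytosines as C and turns unmethylated ones into T. The cells were promyelocytes, precursors of granulocytes, of mice on the FVB/n background that were wild type (WT) or carried a PML-RARα transgene, the fusion of acute promyelocytic leukemia. Early promyelocytes carried CD34 on their surface (CD34+) and late ones did not (CD34−), which gave 4 groups of 5 libraries. The labels give neither the promoter of the transgene nor whether each library of a group is a mouse of its own, so p-values measure the spread between these libraries, which may be in part technical. The sorted cell type cannot be checked against marker expression in methylation data.

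Total coverage per library, summed over cytosines, was 83631324 to 362881291. In the locus a library listed 1039 to 1417 cytosines, at a median of 34 to 121 reads per cytosine. A window had a median coverage of 615 reads per library, with medians of single windows from 93.5 to 7182, and in 15 of the 103 windows some library listed no member cytosine, since cytosines below 10 reads are not in the files. No pair of libraries of a group held the same values, the lowest chi-square per window being 4.88 over 40 pairs. Reads carry no molecular identifiers, so limits derived from read numbers describe counting error alone.

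The protocadherin locus was mostly of intermediate methylation. The level of a window was the share of methylated reads among its reads, in percent, averaged over the libraries of each group and then over the 4 groups. Of the 103 windows, 65 (63.1%) lay between 20 and 80%, against 19% of the 247 windows in the 1 Mb on either side and 17.9% of all windows. Windows below 20% numbered 14 (13.6%, against 34.4% in the flanks and 23.9% of all), and windows above 80% numbered 24 (23.3%, against 46.6% and 58.2%). The median level was 56.9%, with quartiles of 35.7 and 78.4%, whereas it was 73.2% in the flanks and 87.3% over all windows. These shares are descriptions of the windows covered, and the difference between the locus and other windows was not tested.

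Windows with more CpG cytosines are often unmethylated, so levels were also set beside windows with a like number of cytosines. Among windows with 10 to 29 cytosines, 26 of the 33 in the locus (78.8%) were intermediate, against 14% of 57 in the flanks and 16.1% of 20780 in all. Only 3 of the 33 (9.09%) were below 20%, against 57.9% in the flanks and 44% in all. Among windows with 3 to 9 cytosines, 59.4% of 64 were intermediate, against 22.9% and 20.4%. Of the 6 locus windows with 30 or more cytosines, 5 were below 20%, close to the 95.8% of the flanks and 96.3% of all. When every cytosine had to be covered in all 20 libraries, 15 windows of 10 to 29 cytosines were left in the locus, and 53.3% of them were intermediate, against 11.4% of all.

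**Figure D1:**
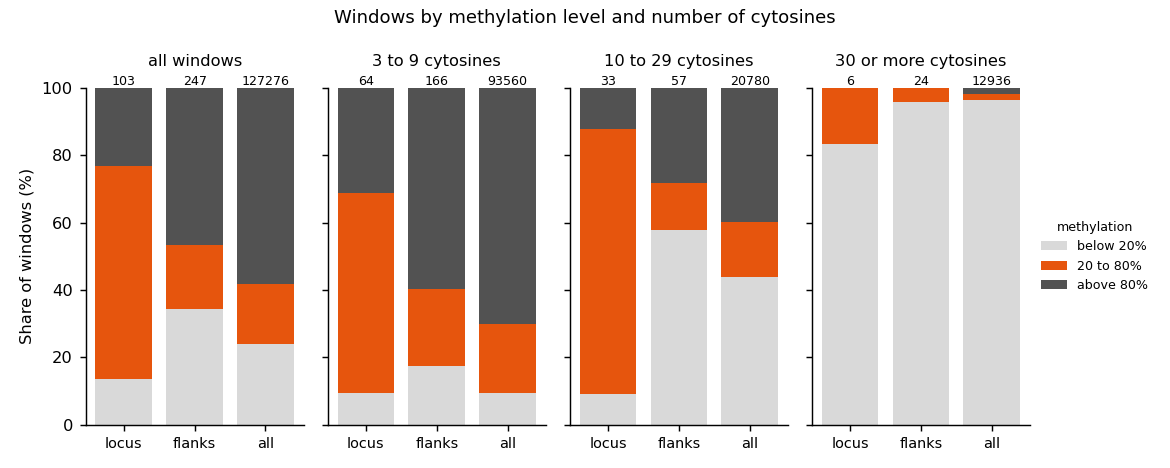
Share of 1 kb windows (%, vertical axis) with a methylation level below 20%, of 20 to 80% and above 80%, for the locus, the 1 Mb on either side (flanks) and all autosomal windows, in panels by number of CpG cytosines per window; the number of windows stands above each bar. The intermediate share reaches 78.8% in locus windows with 10 to 29 cytosines and 16.1% in all windows of that class.

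Single cytosines gave the same picture. Of the 1122 members, 534 (47.6%) had a mean of 20 to 80%, against 9.44% of 3296 cytosines in the flanks and 7.41% of all cytosines kept. Within the 65 intermediate windows, 473 of 606 cytosines (78.1%) were themselves intermediate, 48 were below 20% and 85 above 80%. Over all intermediate windows of the genome the share was 48.8%. Cytosines of 1 intermediate window differed by an SD of 17.2 points in the locus (median over windows), against 24.4 points over all such windows. An intermediate level of a window was thus mostly not a sum of unmethylated and fully methylated cytosines. In bulk cells a mix of cells, of alleles or of reads within 1 allele cannot be told apart.

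The intermediate state was held in every group. The number of windows at 20 to 80% was 66 in WT CD34+, 63 in WT CD34−, 63 in PML-RARα CD34+ and 64 in PML-RARα CD34− cells. In single libraries the share was 59.6% ± 3.54, 61.4% ± 3.02, 59.4% ± 5.06 and 58.8% ± 4.48 in this order (SD, n = 5 each). Of the 65 intermediate windows, 29 stayed within 20 to 80% in every library that covered them, and so did 17 of the 27 with 10 or more cytosines.

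The landscape was uneven along the locus. In the first 100 kb, from 37080001 to 37180000, 10 of 13 windows were intermediate, with a median level of 55.9%. From 37680001 to 37780000 only 2 windows were covered, both above 80%. The next 100 kb held 20 windows, of which 11 were intermediate and 8 above 80%. From 37880001 to 37980000 there were 443 member cytosines in 32 windows, with 23 intermediate windows and 7 below 20%. The intermediate windows there filled the 50 kb from 37880001 to 37930000, a stretch chosen after its values were seen. It held 308 cytosines in 25 windows, of which 23 were intermediate, 2 below 20% and 0 above 80%, with a median of 48.3% and a range of 16.3 to 79.9%.

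**Figure D2:**
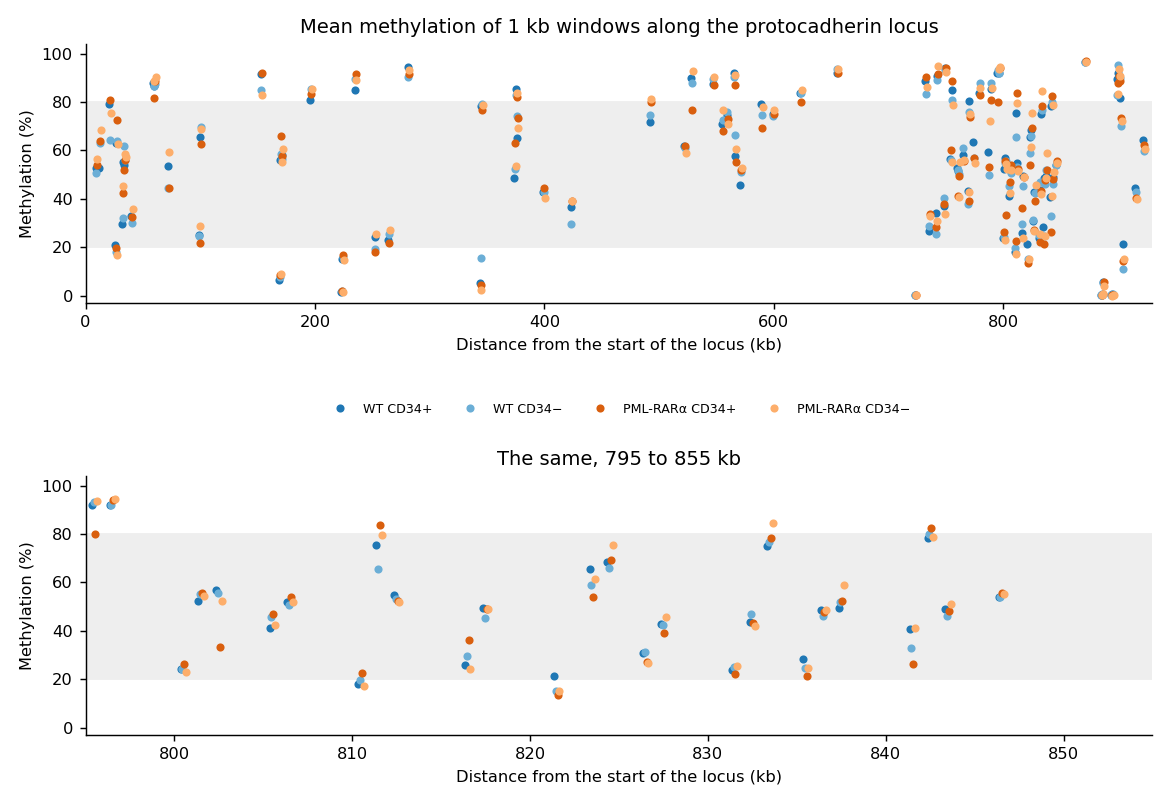
Mean methylation (%, vertical axis) of each 1 kb window in the 4 groups (points set side by side, means of up to 5 libraries) against the distance from the start of the locus (kb), for the whole locus above and for 795 to 855 kb below; the grey band marks 20 to 80%. The groups lie near each other at most windows, and by their mean over the groups 23 of the 25 windows in the 50 kb from 37880001 lie within the band.

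Among windows with 10 or more member cytosines, the 4 nearest 50% all lay in this 50 kb. The window at 37897001 to 37898000, with 23 cytosines, stood at 48.3%. Its libraries read 51.6, 49.1, 54.4, 49.4 and 43.1% in WT CD34+ cells and 47.6, 41.6, 47.8, 38.2 and 50.2% in WT CD34− cells. In PML-RARα cells they read 45.8, 57.8, 41.7, 53.5 and 47.4% (CD34+) and 57.2, 47.5, 49.6, 38.8 and 52.8% (CD34−). The 4 groups overlapped, and no library left the intermediate range. Its cytosines ranged from 36 to 89.2%, with 21 of 23 between 20 and 80%. The window at 37916001 to 37917000, with 24 cytosines, stood at 47.7%, and its libraries spanned 38.0 to 57.9%. Levels of 52.2 and 53% were measured at 37886001 to 37887000 and at 37892001 to 37893000, where the libraries spanned 37.3 to 64.5% and 40.7 to 75.2%.

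The least methylated windows with 10 or more cytosines lay outside that stretch. At 37803001 to 37804000, 45 cytosines had a level of 0.22%, and the libraries ranged from 0 to 1.49%. The lowest coverage of a library at 0 there was 1244 reads, which allows a level of up to 0.241%. At 37966001 to 37967000, 61 cytosines stood at 0.661% (0.0265 to 2.08% over libraries), and the windows before and after it at 0.148 and 5.05%. At 37975001 to 37976000, 15 cytosines stood at 0.542%, and at 37303001 to 37304000, 37 cytosines stood at 1.61%. The window that follows the latter, at 37304001, stood at 15.8% and held cytosines from 0.349 to 91.7%. The most methylated windows with 10 or more cytosines were at 37981001 to 37982000 (90.1%, 21 cytosines), 37645001 to 37646000 (90.1%, 14 cytosines), 37455001 to 37456000 (83.5%, 11 cytosines) and 37703001 to 37704000 (83.2%, 13 cytosines). The only window with 30 or more cytosines that was not below 20% was at 37907001 to 37908000, with 38 cytosines and 42.5%. It was singled out after its values were seen and is also named by its test below.

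Windows that follow each other directly showed an order. Of 38 pairs of adjacent windows in the locus, the one at the higher coordinate had the higher level in 29 (76.3%), with a median step of 11.7 points upward. Over all 30452 adjacent pairs of the genome the share was 50.2%, with a median step of 0.00189 points. Rises and falls nearly balance over whole chromosomes, so this share does not show what other single loci hold. The median size of a step in either direction was 19.5 points in the locus and 3.77 over the genome. The pairs were not matched for level. The order was noticed in these data and was not tested. It was seen in all 20 libraries, with shares of 63.9 to 81.6% per library. Adjacent windows formed 27 runs of 2 to 4 windows, in 25 of which the last window was above the first. The 2 exceptions started at 37645001 (90.1 then 60%) and at 37979001 (85.9, 93, 90.1 and 74.3%). Steep steps were read at 37424001 (6.93 then 78.3%), at 37821001 (29.7 then 91.6%) and at 37890001 (19.4, 75.9 and 53%). With windows shifted by 500 bp the share was 68.6% of 35 pairs, with a single cytosine sufficing for a window it was 66.1% of 59, and with at least 5 cytosines 82.6% of 23.

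**Figure D3:**
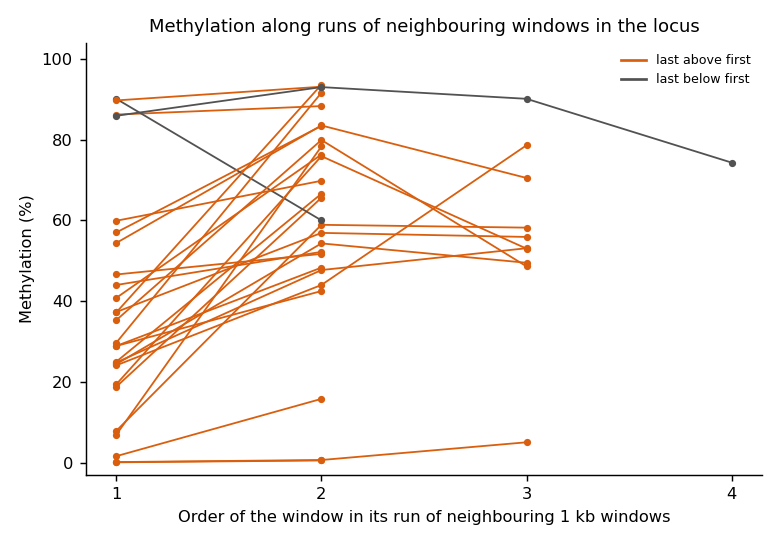
Methylation level (%, vertical axis, mean of the 4 groups) of windows that follow each other directly, in the order of rising coordinate (horizontal axis), for each of the 27 runs in the locus; lines in orange end above their first window and lines in grey end below it. In 25 runs the last window lies above the first.

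At 3 places of the stretch the cytosines behind such a step are given, chosen after their values were seen. At 37880001 to 37881000 the 11 cytosines, all within 37880131 to 37880236, had a median of 21.5% and a range of 7.12 to 52%. In the next window, at 37881001, the 24 cytosines had a median of 64.8% and a range of 23.7 to 92.8%. At 37896001 the median was 26.3% over 7 cytosines and at 37897001 it was 48.7% over 23. At 37915001 it was 21.7% over 15 and at 37916001 it was 45.1% over 24. In each of these places the lower and the higher window overlapped in the range of their cytosines.

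Nearby cytosines were alike. The correlation of mean levels between cytosines 2 to 10 bp apart was 0.918 over 515 pairs, and it was 0.868 at 51 to 200 bp and 0.593 at 501 to 1000 bp. Over all cytosines it was 0.975, 0.951 and 0.666. The cytosines of a CpG on opposite strands, which are copied onto each other by maintenance methylation, had a correlation of 0.931 over 134 CpGs and a median difference of 1.54 points. Over 353316 CpGs of the genome these were 0.959 and 0.203 points. For CpGs with a mean of 20 to 80% they were 0.628 and 3.79 points over 63 CpGs of the locus, and -0.162 and 5.36 points over 22368 of the genome. These CpGs were chosen by the mean of both strands, which keeps strands that differ widely and drops CpGs low or high on both. This choice by itself lowers the correlation and raises the difference, to a degree that was not measured. The pattern over cytosines within intermediate windows correlated between groups at 0.808 to 0.873 over 606 cytosines, against 0.946 to 0.964 over all such windows. These correlations are across cytosines that share libraries and reads, and the cytosines are not independent.

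The mean over member cytosines did not separate the groups. It was 45% ± 1.31 in WT CD34+, 45.3% ± 0.456 in WT CD34−, 45% ± 1.75 in PML-RARα CD34+ and 45.6% ± 0.639 in PML-RARα CD34− libraries (SD, n = 5 each). The single libraries were at 42.8, 45.2, 45.5, 45.3 and 46.3% in WT CD34+ and at 45.1, 45.7, 44.9, 45 and 45.9% in WT CD34− cells. In PML-RARα they were at 45.5, 46.3, 42.1, 44.6 and 46.3% (CD34+) and at 45.9, 45.6, 44.6, 45.7 and 46.3% (CD34−). WT CD34+ replicate 1 and PML-RARα CD34+ replicate 11 were the lowest, and all 4 groups overlapped. The differences, each smaller than the SD of at least 1 of its groups, were -0.0888 points between PML-RARα and WT in CD34+ cells and 0.275 points in CD34− cells. Between CD34− and CD34+ cells they were 0.283 points in WT and 0.648 points in PML-RARα. These signs turned with 1 library, to -0.27 points in WT without CD34+ replicate 1 and to -0.0641 points in PML-RARα without CD34+ replicate 11. With all reads of the locus pooled the WT difference was -0.675 points, and with windows weighted equally the PML-RARα difference was 1.69 points. The genotype difference in CD34+ cells was 0.623 points without PML-RARα CD34+ replicate 11. These means run over the members that each library listed. Over the 614 listed in all 20 libraries the 4 differences were 0.407, 0.404, 0.14 and 0.138 points in the order above. The 0.404 points between genotypes in CD34− cells exceeded the SD of both groups (0.299 in WT, 0.276 in PML-RARα). Their libraries overlapped (40.4 to 41.2% and 40.9 to 41.5%). Over all autosomal cytosines kept the same differences were -0.344, -0.186, -0.236 and -0.0778 points.

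Sequencing used 4 flowcells (called A to D here), and the differences were also taken within each. PML-RARα minus WT in CD34+ cells was -0.614 points on B (3 libraries against 1) and -0.851 on D (1 against 2). In CD34− cells it was 0.387 on A (3 against 2) and -0.451 on B (2 against 1). CD34− minus CD34+ in WT was 0.899 on A (2 against 2), 0.424 on B (1 against 1) and -0.402 on D (2 against 2), and in PML-RARα it was 0.587 on B (2 against 3). The sign differed between flowcells in the genotype comparison of CD34− cells and in WT maturation. Over the cytosines listed in all libraries the genotype difference in CD34− cells was positive on both flowcells (0.462 on A, 0.0397 on B). In CD34+ cells it differed in sign there (0.273 on B, -0.412 on D). WT maturation also differed in sign (0.282 on A, 0.273 on B, -0.0671 on D). Other flowcells held 1 side of a comparison only.

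**Figure D4:**
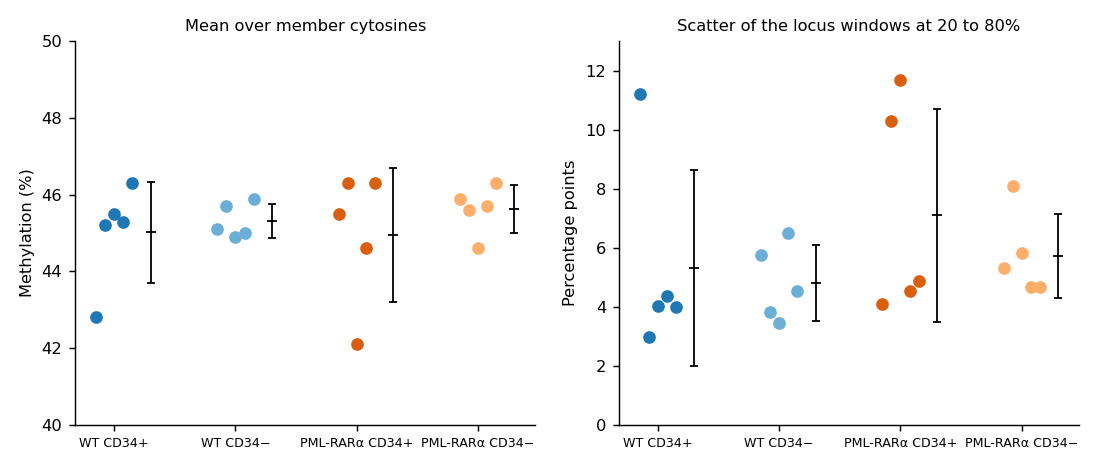
Left, mean methylation (%) over member cytosines in each library by group, on an axis from 40 to 50%; right, scatter of each library in points, the median distance of its intermediate locus windows from the middle value of its group's other 4 libraries. Points are libraries and bars the mean ± SD (n = 5); the group means lie between 45 and 45.6%, and 3 libraries have a scatter above 10 points.

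Libraries differed in how widely their readings scattered. The scatter of a library, the median distance of its intermediate windows from the middle value of its group's other 4 libraries, was above 6 points over the genome in 6 libraries. In WT this was replicate 1 of the CD34+ fraction. In PML-RARα these were replicates 5 and 11 of the CD34+ fraction and 4, 6 and 12 of the CD34− fraction. In locus windows their scatter was 11.2, 10.3, 11.7, 5.31, 8.11 and 5.81 points in this order, and 2.97 to 6.51 points in the other libraries. Of cytosines with a group mean of 30 to 70% in the locus, these libraries read 21.8, 16.9, 25.4, 6.18, 14.5 and 10.1% as below 5% or above 95%, and the others 0 to 5.97%. The median SD within groups of intermediate windows was 7.55 points in the locus and 8.36 over the genome, and 4.97 and 5.81 points without the 6 libraries. Libraries of 1 group correlated over the 88 fully covered windows at a median of 0.932, and libraries of different groups at 0.937. Only 3 of the 20 libraries were most like one of their own group, against 10 of 20 over 229 windows of the flanks. Each library has 4 others in its own group, so some such matches arise by chance, and these counts were not tested. In the flanks the median correlation was 0.984 both within a group and between groups.

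No window or cytosine of the locus was called between any groups. A call needed an adjusted p below 0.05 in a quasi-binomial test fitted to all features and a difference of at least 10 points. The first question of the design is what the PML-RARα genotype changes. In CD34+ cells 0 of 103 windows were called (0.00314% of all windows) and 2 had an unadjusted p below 0.05, 1.94% against 4.19% of all. In CD34− cells 0 were called (0.000786% of all) and 7 had an unadjusted p below 0.05, 6.8% against 7.79%. With both fractions in the model 0 were called (0.00157% of all) and 5 had an unadjusted p below 0.05, 4.85% against 6.44%. Limma, run on log2 ratios, called 0 of the 127276 windows in each of the 3 comparisons. In the quasi-binomial model the smallest adjusted p in the locus was 1, 0.531 and 0.676 in these 3 comparisons.

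The second question is what maturation from early to late promyelocytes changes. In WT cells 0 of 103 windows were called (0.427% of all windows), and 0 had an unadjusted p below 0.05, against 6.21% of all. In PML-RARα cells 0 were called (0.0558% of all) and 8 had an unadjusted p below 0.05, 7.77% against 9.42%. With both genotypes in the model 0 were called (0.608% of all) and 1 had an unadjusted p below 0.05, 0.971% against 9.65%. Whether the maturation difference depends on genotype was tested as an interaction, which called 0 windows in the locus and 0% of all, with 4 in the locus at an unadjusted p below 0.05, 3.88% against 5.16%. Limma called 0 windows of the locus in these 4 comparisons. Of all 127276 windows it called 165 in WT, 27 in PML-RARα, 331 over both genotypes and 0 by the interaction.

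Single cytosines were tested in the pairwise comparisons. Of 1122 members, 0 were called between genotypes in CD34+ cells (5.78e-05% of all cytosines), and 67 had an unadjusted p below 0.05, 5.97% against 5.34%. In CD34− cells 0 were called (5.78e-05%) and 118 had an unadjusted p below 0.05, 10.5% against 8.44%. Between fractions 0 were called in WT (0.0429%) and 48 had an unadjusted p below 0.05, 4.28% against 5.83%. In PML-RARα cells 0 were called (0.00196%) and 124 had an unadjusted p below 0.05, 11.1% against 8.53%. The share at an unadjusted p below 0.05 was above that of all cytosines in 3 comparisons and below it in WT maturation, and these differences were not tested.

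The precision of the windows limits what could be called. The median SE of a difference between groups was 3.71 to 4.72 points in locus windows and 2.06 to 2.71 points over all windows. For intermediate windows it was 4.00 to 5.05 points in the locus and 4.30 to 5.68 over the genome. Differences of at least 10 points were measured at 11, 7, 5 and 9 of the 103 windows in the 4 pairwise comparisons (PML-RARα against WT in CD34+ and CD34− cells, then CD34− against CD34+ in WT and PML-RARα). These were 10.7, 6.8, 4.85 and 8.74% of the locus windows, against 3.31, 2.35, 3.08 and 4.64% of all windows, which were less often intermediate. Among intermediate windows alone the median size of a difference was 3.36, 3.91, 2.8 and 3.36 points in the locus. It was 3.59, 3.05, 3.44 and 4.16 points over the genome. The differences of at least 10 points do not pass the test. In a typical intermediate window differences of a few points were not detectable at this depth and spread. The median difference over the 103 windows was -0.384 and 0.629 points between genotypes (CD34+, CD34−) and -0.0815 and 0.862 points between fractions (WT, PML-RARα), against -0.0575, -0.0114, -0.374 and -0.12 points over all windows.

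Since none was called, the windows with the smallest p in each direction are given. Between genotypes in CD34− cells the smallest p belonged to 37822001 to 37823000, a methylated window of 5 cytosines. WT CD34− libraries read 96.6, 88.0, 88.8, 88.5 and 83.9%, and PML-RARα CD34− libraries 90.8, 100, 97.7, 90.4 and 96.6%. The groups overlapped through WT replicate 2. The means were 89.2% ± 4.61 and 95.1% ± 4.28 (SD, n = 5 each), with an adjusted p of 0.531 in the quasi-binomial model.

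The window at 37913001 to 37914000, with 5 cytosines and a level of 78.6%, was named in 3 comparisons. It read 75.6, 78.3, 76.6, 72.0 and 72.1% in WT CD34+ and 72.0, 81.9, 74.4, 74.5 and 81.1% in WT CD34− libraries. In PML-RARα libraries it read 78.7, 75.3, 83.5, 78.3 and 75.6% (CD34+) and 88.5, 75.3, 88.4, 84.2 and 85.6% (CD34−). In CD34− cells 4 of 5 PML-RARα libraries lay above every WT library, and replicate 6 lay among them. The difference was 7.64 points in CD34− cells (adjusted p = 0.566, quasi-binomial model) and 5.50 points over both fractions (adjusted p = 0.685).

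The window at 37906001 to 37907000, with 14 cytosines, had the smallest p between genotypes over both fractions. WT libraries read 35.1, 23.0, 32.6, 30.7 and 32.4% in CD34+ and 30.7, 33.7, 29.2, 30.1 and 31.9% in CD34− cells. PML-RARα libraries read 25.3, 32.1, 21.9, 27.9 and 27.6% in CD34+ and 28.1, 23.5, 24.9, 27.8 and 28.9% in CD34− cells. In CD34− cells the groups did not overlap, while in CD34+ cells WT replicate 7 lay low and PML-RARα replicate 5 high. The difference was -4.14 points (adjusted p = 0.676, quasi-binomial model), below the 10 points a call needs. The next window, at 37907001, is the one with 38 cytosines described above.

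At 37424001 to 37425000, a window of 8 cytosines with a level of 6.93%, WT CD34− libraries read 46.7, 6.76, 6.26, 11.3 and 6.80%. PML-RARα CD34− libraries read 0, 2.31, 0, 2.73 and 7.09%, where the lower coverage of the libraries at 0 was 222 reads and allows up to 1.35%. The difference of -13.1 points (adjusted p = 0.603, quasi-binomial model) was carried by WT replicate 2 and was -5.37 points without it. The other windows named between genotypes were at 37975001 (-0.493 points in CD34− cells), 37456001 and 37250001 (8.08 and 10.0 points in CD34+ cells), 37645001 and 37455001 (-4.90 and -3.09 points in CD34+ cells), 37904001 (5.24 points over both fractions) and 37882001 (-13.5 points over both fractions). Their adjusted p was 0.577 to 1, and at 37882001, with 3 cytosines, 2 libraries listed no member cytosine and the others ranged from 0 to 73.8%, where a library at 0 with 108 reads allows up to 2.78%. The difference there was -4.83 points without PML-RARα CD34− replicate 6 and 0.288 points without the 6 libraries of high scatter. At 37250001 it was 2.37 points without these 6 libraries.

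Between fractions of PML-RARα cells the smallest p belonged to 37896001 to 37897000, with 7 cytosines. CD34+ libraries read 28.9, 31.5, 49.4, 34.4 and 37.2%, and CD34− libraries 14.1, 19.5, 26.6, 29.8 and 29.8%. The groups overlapped only between 28.9 and 29.8%. The means were 36.3% ± 7.97 and 24% ± 6.93 (SD, n = 5 each), a difference of -12.3 points with an adjusted p of 0.353 in the quasi-binomial model. In WT cells the means were 25.8% ± 10.6 and 29.4% ± 4.77, and the interaction was -16 points with an adjusted p of 0.967. Without the 6 libraries of high scatter the PML-RARα difference was -3.68 points and the interaction -3.31 points. Most of these 6 are PML-RARα libraries, so fewer PML-RARα than WT libraries remain in that setting.

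At 37907001 to 37908000, PML-RARα libraries read 43.9, 30.6, 39.6, 37.8 and 43.7% in CD34+ and 47.0, 58.2, 40.6, 45.5 and 37.6% in CD34− cells. The fractions overlapped over most of their range. WT libraries read 32.5, 43.2, 45.6, 44.8 and 48.7% and 42.4, 46.9, 41.8, 39.1 and 41.0%. The difference in PML-RARα was 6.63 points (adjusted p = 0.468, quasi-binomial model) and the interaction 7.32 points (adjusted p = 0.964). Without PML-RARα CD34− replicate 6 these were 3.53 and 4.21 points, and without the 6 libraries of high scatter -0.274 and 3.03 points. At 37645001 the PML-RARα means were 87% ± 3.25 in CD34+ and 91.1% ± 0.962 in CD34− cells (SD, n = 5 each), and at 37967001, a window of 37 cytosines, they were 5.77% ± 2.54 and 3.95% ± 1.90, with adjusted p of 0.416 and 0.442. The difference at 37645001 was 4.06 points, and 1.96 points without the 6 libraries.

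In WT maturation the named windows were at 37456001 (9.13 points), 37975001 (0.183), 37455001 (-2.46) and 37982001 (-11.3), with adjusted p from 0.834 to 0.917. At 37982001 the difference was -6.67 points without WT CD34+ replicate 1. Both 37455001 and 37456001 were also named by the interaction (4.16 and -13.3 points, adjusted p = 0.964 for both in the quasi-binomial model). At 37456001 WT libraries read 65.9, 70.2, 54.8, 60.8 and 74.5% in CD34+ and 77.1, 76.8, 72.4, 70.5 and 75% in CD34− cells. PML-RARα libraries read 69.5, 82.7, 70.3, 69.9 and 74.3% in CD34+ and 71.0, 71.6, 66.4, 76.5 and 60.2% in CD34− cells. As unpaired groups the fractions overlapped in both genotypes. By consecutive title numbers, a pairing the labels do not state, CD34− was higher in 5 of 5 WT pairs (0.596 to 17.7 points). It was higher in 2 of 5 PML-RARα pairs. This window was named for its p in WT maturation, so the direction of its WT pairs is no separate evidence. At most named windows the pairs went in both directions, but at 37113001 CD34− was also higher in 5 of 5 WT pairs. With these pairs as a replicate block, the adjusted p at 37456001 in WT maturation was 0.545 in the quasi-binomial model. Over both genotypes the named windows were at 37913001 (3.97 points), 37113001 (6.62), 37835001 (-7.21) and 37974001 (-0.111), with adjusted p from 0.461 to 0.580. At 37113001 the difference was 3.67 points without PML-RARα CD34+ replicate 11. At 37974001, with 4 cytosines, all 5 PML-RARα CD34− libraries were at 0 of 3028 reads in all, which allows a level of up to 0.0991%.

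**Figure D5:**
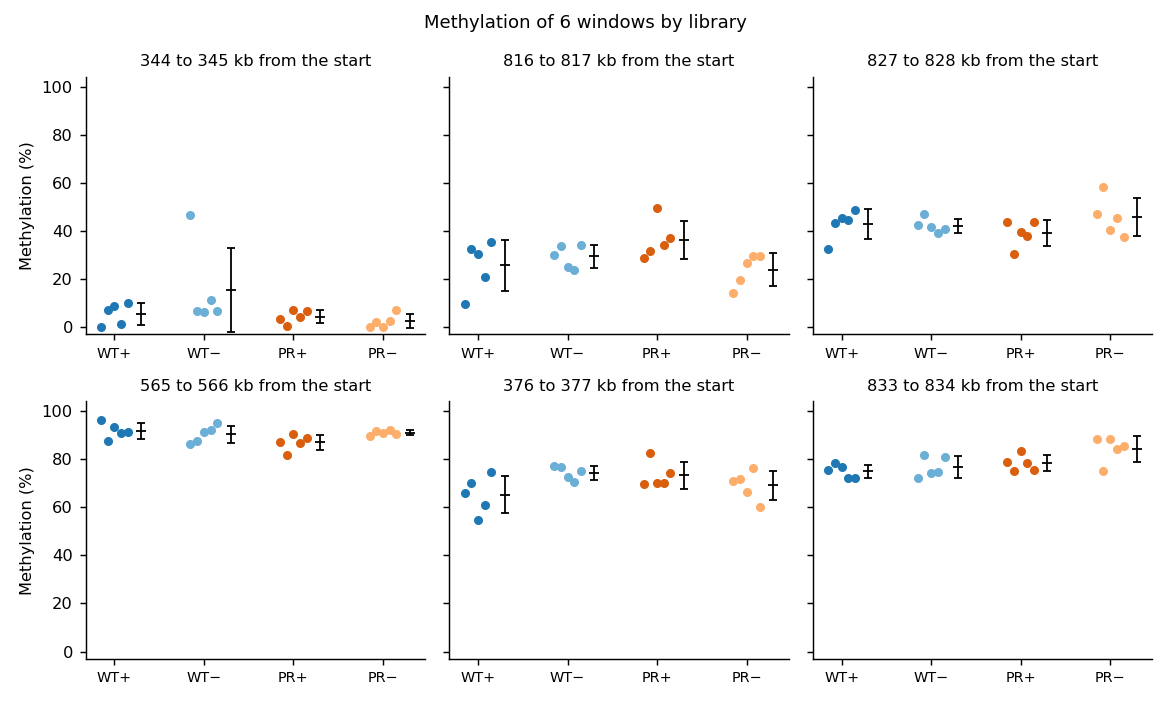
Methylation (%, vertical axis) of 6 windows named by their tests in each library by group (WT+, WT−, PR+ and PR− for WT and PML-RARα cells of the CD34+ and CD34− fractions), titled by distance from the start of the locus; bars are the mean ± SD. The window at 344 to 345 kb (37424001) shows 1 WT CD34− library at 46.7%, and the groups overlap or nearly meet at the others.

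Among single cytosines the smallest adjusted p was 0.188, at position 37233634 of the plus strand, between fractions of PML-RARα cells. CD34+ libraries read 97.2, 100, 100, 98.4 and 92.5%, and CD34− libraries 65.0, 60.9, 81.8, 85.7 and 58.3%. All CD34+ libraries lay above all CD34− libraries, at a lowest coverage of 11 reads over all libraries. WT libraries read 86.7, 81.8, 96.4, 94.4 and 81.2% in CD34+ and 30, 80.3, 100, 87.2 and 84.9% in CD34− cells, which overlapped. At position 37120127 of the plus strand PML-RARα CD34− libraries read 77.4, 100, 96.7, 81.9 and 75.8%, and CD34+ libraries 55.6, 67.1, 49.6, 67.2 and 66.9% (adjusted p = 0.295, quasi-binomial model). These fractions did not overlap either, and both cytosines were picked for their p among 1122. The other 5 named cytosines, at 37303458, 37669821, 37981673, 37396463 and 37249606, differed by -14.5 to 11.3 points, with adjusted p from 0.232 to 0.841.

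The widest spread within groups belonged to windows of few cytosines. At 37882001 it was an SD of 23.4 points over 3 cytosines, at 37112001 of 21.1 points over 3, at 37921001 of 18.1 points over 3 and at 37152001 of 17.7 points over 4. At 37112001 PML-RARα CD34+ libraries read 26.7, 46.2, 5.44, 33.9 and 100%, across nearly the whole scale. The readings of 26.7 and 100% rested on 30 reads each, and that of 5.44% on 239. At 37921001 WT CD34+ replicate 1 and PML-RARα CD34− replicate 6 both read 80%, and the other libraries 14.1 to 48.7%. The median coverage of these windows was 182, 122, 294 and 294 reads per library.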

How the data were processed

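CpG methylation of 20 ERRBS libraries was analysed. The deposited files give, per the file headers, the count of reads covering each CpG cytosine of each strand and the percent of these reads with C and with T, and no cytosine below 10 reads is listed. The submitters' processing notes name CASAVA 1.8.2, Bismark and the mm9 genome, and the role of each tool is not given in the sources used here. Replicates were deposited separately. Groups were taken from the labels. Methylated and unmethylated reads were coverage times percent C or T, rounded, and C and T together fell below 100% at 1.39 to 3.26% of cytosines.

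Cytosines with coverage in at least 4 of 5 libraries per group were kept on chromosomes 1 to 19, and reads were summed over 1 kb windows with at least 3 of them. A quasi-binomial logistic model was fitted to each window and each cytosine and tested by a two-sided F test of the deviance, with the overdispersion moderated as in limma's squeezeVar (limma 3.58.1, R 4.3.3) and kept at 1 or above, and Benjamini-Hochberg adjustment over all features. The 4 groups shared 1 overdispersion per feature, although scatter differed between libraries. A call needed an adjusted p below 0.05 and 10 points. The fit was tested on simulated data. Computations used Python 3.11.15, numpy 2.4.6, pandas 2.3.3 and scipy 1.17.1.

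Windows are named where called, or else by the 2 smallest p per direction and comparison, and, with 10 or more cytosines, by the 4 lowest, 4 highest and 4 nearest 50%, and by the 4 largest SDs within groups. Cytosines are named by the smallest p per direction and pairwise comparison. The locus, its members and these rules were chosen with earlier results of these data known. Alternatives were coverage of 20, all 20 libraries, shifted windows, 1 or 5 cytosines per window, limma on log2((methylated + 1)/(unmethylated + 1)), flowcell or the number after # in the titles as a factor, consecutive title numbers as a block (added after the data were seen), thinning, and leaving out libraries.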

Additional observations from a re-analysis of the deposited data

Results flagged for a closer look

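In 118 sets of 5 libraries, 12 values stood apart by Dixon's criterion. The gap to the nearest library was then more than 0.71 of the whole range. The sets were the 4 groups for library measures. For windows named only by pairwise comparisons they were the groups compared, and for other named windows all 4 groups. Groups in which a library did not cover the window were left out. Chance flags about 1 in 20 groups of normal values that were not selected, or 5.9 here. The named windows were picked for their p, level or large SD. The number expected by chance among them is therefore not known, and several of these may be chance. Intervals are 95% Wilson intervals and cover counting error only.

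The scatter in locus windows was 11.2 points for WT CD34+ replicate 1, against 2.97 to 4.37 in the other 4. The same library had 53.4% of its locus windows at 20 to 80%, where the other 4 had 60.2 to 62.1%. It was the shallowest library in the locus, with a median coverage of 34 reads.

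In WT CD34− cells replicate 2 read 46.7% at 37424001 (105 reads, 37.4 to 56.2%), where the others read 6.26 to 11.3%. Replicate 16 read 87.8% at 37455001 (1122 reads, 85.7 to 89.6%), where the others read 80.7 to 82.1%. Replicate 18 read 29.5% at 37882001 (61 reads, 19.6 to 41.9%), where the others read 58.7 to 64.5%.

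In WT CD34+ cells replicate 9 read 57.7% at 37886001 (1234 reads, 54.9 to 60.4%), against 49.4 to 51.7%. Replicate 15 read 14.9% at 37112001 (409 reads, 11.8 to 18.7%), against 30.7 to 34.3%.

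In PML-RARα CD34− cells replicate 4 read 1.49% at 37803001 (2752 reads, 1.10 to 2.01%), against 0 to 0.233%, and 72.8% at 37703001 (842 reads, 69.7 to 75.7%), against 86.5 to 91.4%.

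In PML-RARα CD34+ cells replicate 11 read 75.5% at 37981001 (1279 reads, 73.1 to 77.8%), against 90 to 95.2%. Replicate 5 read 75.2% at 37892001 (125 reads, 67.0 to 81.9%), against 40.7 to 50.3%. Replicate 19 read 75.9% at 37152001 (373 reads, 71.3 to 79.9%), against 30.9 to 41.7%. Of these 12 values, those of replicates 1, 4, 5 and 11 belong to libraries of high scatter, whose part in them was not tested.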

How the results depend on the processing

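No window of the locus was called in any of the 7 comparisons under any of the 31 settings that could fit it, and no cytosine under any of 24 settings in 4. The intermediate share of locus windows was 54.2% when 1 cytosine sufficed for a window, and it lay between 62.1 and 66.7% under the other settings (62.1 to 64.1% without each single library). With windows weighted equally the locus mean differed between genotypes by 1.36 points in CD34− and -0.937 points in CD34+ cells, and between fractions by -0.613 points in WT and 1.69 points in PML-RARα. The spread between libraries was 4.97 points without the 6 libraries of high scatter. Of 28 differences of named windows, 3 turned their sign: 37882001 between genotypes over both fractions (0.288 points) and 37907001 between fractions of PML-RARα cells (-0.274 points), both without the 6 libraries, and 37975001 in WT maturation (-0.211 points) after thinning to equal coverage. The cause was not tested. None of the 28 reached an adjusted p below 0.05 under any setting, the lowest being 0.232. The share of adjacent windows with the second higher was 66.1 to 82.6% under settings added after the data were seen, and 76.3 to 78.9% without each single library. The number after # in the titles, used as a factor, changed no call. Consecutive leading title numbers join a CD34+ and a CD34− library of 1 genotype with the same number after #. They may be fractions of 1 mouse, which the labels do not state. The deviations of such pairs from their group means correlated at -0.0578 to 0.238 over 20693 intermediate windows of the genome. The correlation was above 0.1 in 3 of 10 pairs. Each library was compared with the 5 libraries of its partner's group, and 10 of 20 correlated best with their partner. Some such matches arise by chance. Over 56 intermediate windows of the locus the range was -0.193 to 0.447, above 0.1 in 5 of 10 pairs. There 5 of 20 libraries correlated best with their partner. With these pairs as a replicate block, a fit added after the data were seen, 0 windows of the locus were called in the 4 comparisons it allows, and the adjusted p at 37896001 was 0.3 in PML-RARα maturation in the quasi-binomial model. Whether intermediate levels reflect cells, alleles or reads cannot be told apart.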
